A study of Xenopus laevis with 20 samples.

Results

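The genes described here are transcription factors of the non-neural ectoderm of the frog *Xenopus laevis*. They were chosen by name, as every probe set annotated to *dlx2*, *dlx3*, *dlx5*, *foxi1*, *gata2*, *gata3* or *tfap2a* in either homeolog (.L or .S, the copies on the long and the short subgenome of this allotetraploid species). The choice gave 10 probe sets of 9 genes, out of 15491 probe sets tested: *dlx2.L*, *dlx2.S*, *dlx3.L*, *dlx3.S*, *dlx5.L*, *foxi1.L*, *gata2.L* with 2 probe sets (called the A1 set and the S1 set here, after the ends of their names), *gata3.S* and *tfap2a.L*. No measured value entered the rule, but the genes were chosen with earlier results of these data known. In the RefSeq gene order of *X. laevis* v10.1, *dlx3.L* and *dlx3.S* each lie beside a *dlx4* gene and *dlx5.L* beside *dlx6.L*, the paired arrangement in which Dlx genes occur in vertebrates.

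In the gastrula, BMP signals from the ventral side direct ectoderm towards epidermis, and BMP inhibitors released by the dorsal organizer, such as Noggin, let it form neural plate. Several of the factors described here, though not all, are known to act between these steps. They are switched on in ectoderm exposed to BMP and keep cells out of the neural plate. Some of the factors later mark the border where neural crest and placodes arise. Dkk-1, the other inhibitor used, blocks Wnt ligands at their LRP co-receptor.

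The study asked which genes respond when an organizer signal is supplied on the ventral side. All embryos received *eGFP* mRNA as a tracer in the marginal zone of 1 ventral blastomere at the 4-cell stage, and 3 of the 4 mixtures also carried linearized plasmid. Embryos were later cut into a dorsal and a ventral piece. Ventral pieces came from embryos given *noggin* plasmid (**Nog**), *noggin* and *dkk-1* plasmids (**Nog+Dkk**), *dkk-1* plasmid (**Dkk**) or no plasmid (**Ven**), and dorsal pieces (**Dor**) from the embryos that gave **Ven**. Each condition was measured on 2 arrays at stage 10 (early gastrula, clutches 1 and 2) and 2 at stage 11.5 (late gastrula, clutches 3 and 4), 20 arrays in all. An array held RNA pooled from 10 pieces. Dorsal and ventral were told apart for the cut by the blastopore lip at stage 10 and by *eGFP* fluorescence at stage 11.5. A piece contains all germ layers, and injection of 1 blastomere leaves cells of a ventral piece without plasmid. Fewer cells of a type and less RNA per cell cannot be told apart in such samples. There was no control with an empty plasmid, so an effect of the injected DNA and one of the encoded protein cannot be told apart where all plasmid conditions move together. Since no clutch was sampled at both stages, a difference between stages cannot be told apart from one between clutches. Nor can it be told apart from an effect of the way of cutting.

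The values are RMA intensities as the authors deposited them, log2 transformed for the tests, and the array medians lay between 100.3 and 119 intensity units. Each comparison was fitted in limma with the clutch as a block, and a probe set is said to have risen, fallen or been called where its Benjamini-Hochberg adjusted p over all 15491 probe sets was below 0.1. With 2 arrays per group, p-values measure only the spread between arrays that is left once the clutch difference is taken out. That spread was estimated over all 10 groups together. Organizer genes were raised in the dorsal pieces, though not only there. Of 14 probe sets of organizer genes, 10 rose in **Dor** against **Ven** at stage 10 and 13 at stage 11.5, with none falling. These comparisons called 0.684% and 2.84% of all probe sets. At stage 11.5, 9 of the 14 also rose with both plasmids, where 4.6% of all probe sets were called. With *noggin* alone 4 rose (8.57% called), and with *dkk-1* alone 2 (0.445% called). At stage 10, 1 rose with both plasmids (0.271% called) and 1 with *noggin* alone (0.129% called). *nog.L*, the endogenous noggin gene, was raised in **Dor** by 2.94 at the earlier stage (log2, adjusted p = 2.49e-11) and by 2.14 at the later (adjusted p = 2.99e-09). All comparisons with **Ven** at a stage share the same 2 **Ven** arrays.

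*tfap2a.L*, *dlx3.S* and *dlx5.L* were lower in dorsal than in ventral pieces at stage 10, at 0.466 to 0.58 times the **Ven** level, and no plasmid condition had a called change in them at that stage. These 3 probe sets were all that was called among the 10 members in **Dor** against **Ven** at stage 10, where 0.684% of all probe sets were called. The median change of the members was -0.34 on the log2 scale, beside -0.011 over all probe sets, and 8 of the 10 had a value below 0.

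*tfap2a.L* encodes AP-2alpha, a BMP-responsive activator of epidermal genes that is also needed for neural crest. At stage 10 it read 617 and 554 (**Nog**, clutch 1, then clutch 2, as in all lists of stage 10 values), 510.3 and 607 (**Nog+Dkk**), 632 and 595 (**Dkk**), 345 and 336 (**Dor**), and 553 and 625 (**Ven**). The 2 dorsal arrays were below all 8 ventral ones, and the 4 ventral conditions overlapped. The change in **Dor** was -0.79 ± 0.12 (log2, standard error, adjusted p = 0.00161), while the plasmid conditions had 95% intervals of -0.26 to 0.25 (**Nog**), -0.33 to 0.18 (**Nog+Dkk**) and -0.19 to 0.32 (**Dkk**).

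*dlx3.S* encodes a homeodomain factor that is switched on by BMP and opposes neural fate. Its stage 10 intensities were 245 and 97.6 (**Nog**), 198.5 and 200.04 (**Nog+Dkk**), 223 and 183 (**Dkk**), 81.5 and 70.3 (**Dor**), and 174 and 152 (**Ven**). Again the dorsal arrays were the lowest of the 10. **Nog** stood apart by its spread, with clutch 1 above and clutch 2 below its **Ven** array. The change in **Dor** was -1.103 ± 0.20 (adjusted p = 0.00979), with differences of -1.09 and -1.11 in the 2 clutches.

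*dlx5.L* encodes a related factor of the epidermis and the neural plate border. It read 186 and 145 (**Nog**), 189.5 and 202 (**Nog+Dkk**), 197 and 229 (**Dkk**), 111 and 113 (**Dor**), and 181 and 211 (**Ven**) at stage 10. The change in **Dor** was -0.80 ± 0.13 (adjusted p = 0.00263). Without clutch 2, which leaves single arrays assumed to vary like the other groups, *dlx5.L* changed by -0.71 (adjusted p = 0.362) and *tfap2a.L* by -0.68 (adjusted p = 0.472), and both calls were lost. Without the clutch block, *dlx5.L* kept its call (adjusted p = 0.0429), while *dlx3.S* (adjusted p = 0.567) and *tfap2a.L* (adjusted p = 0.917) lost theirs.

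*dlx3.L*, the homeolog of *dlx3.S*, had a value of the same sign in **Dor** that did not pass the test. Its stage 10 intensities were 62.2 and 32.4 (**Nog**), 51.2 and 47.4 (**Nog+Dkk**), 49.1 and 50.2 (**Dkk**), 42.4 and 33.2 (**Dor**), and 54.8 and 48.9 (**Ven**). The dorsal arrays lay below both **Ven** arrays but overlapped with **Nog**. The log2 change was -0.46 in **Dor** (95% interval -0.82 to -0.11, adjusted p = 0.745).

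Dorsal tissue also differed from ventral tissue that carried both inhibitor plasmids, on the same 2 **Dor** arrays as above. In **Nog+Dkk** against **Ven**, *tfap2a.L* changed by -0.079 and *dlx5.L* by 0.0013. Their differences from **Dor** therefore largely repeat the low **Dor** readings and are no separate result. In **Nog+Dkk** against **Dor** at stage 10, 4 of the 10 members were called, all higher in **Nog+Dkk**, where 0.742% of all probe sets were called. *dlx3.S* was higher by 1.40 (adjusted p = 0.00102), *dlx5.L* by 0.81 (adjusted p = 0.00293) and *tfap2a.L* by 0.71 (adjusted p = 0.00477), each on the log2 scale. The fourth was *foxi1.L*, higher by 2.07 (adjusted p = 7.21e-07). Without clutch 1 or without clutch 2, *dlx5.L* (adjusted p = 0.161 and 0.168) and *tfap2a.L* (adjusted p = 0.162 and 0.774) were not called, while *dlx3.S* and *foxi1.L* were. With the 2 arrays that have conflicting clutch labels left out, only *foxi1.L* was called. At stage 11.5 none of the 10 was called in this comparison (0.536% of all probe sets were), and 1 had an unadjusted p below 0.05.

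**Figure D1:**
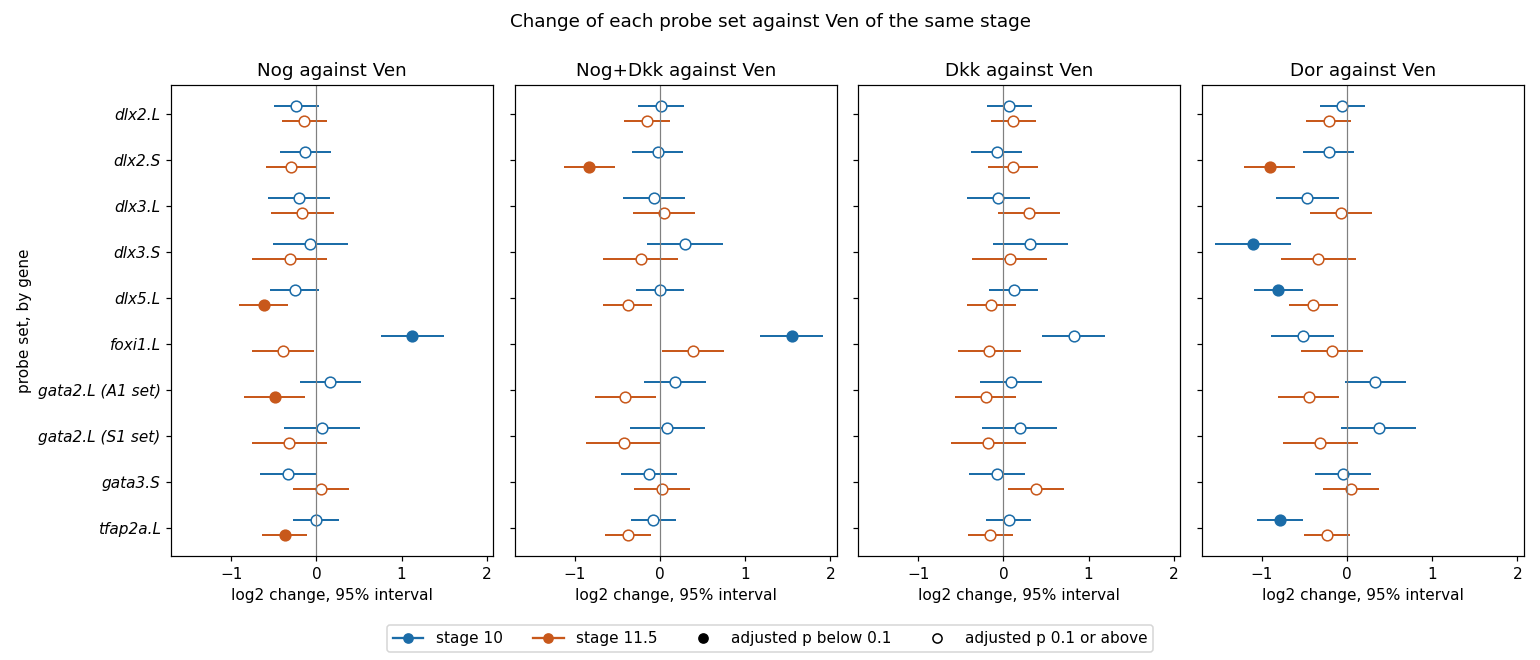
Log2 change of each member probe set (rows) against stage-matched Ven, in 1 panel per condition, with the 95% interval as a line, stage 10 in blue and stage 11.5 in orange, and filled points where the adjusted p was below 0.1. The filled points are tfap2a.L, dlx3.S and dlx5.L at stage 10 in Dor, foxi1.L at stage 10 in Nog and Nog+Dkk, dlx2.S at stage 11.5 in Nog+Dkk and Dor, and dlx5.L, tfap2a.L and 1 gata2.L probe set at stage 11.5 in Nog.

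*foxi1.L* was the one member that rose with plasmid at stage 10. It encodes the forkhead factor also called foxi1e or xema, which promotes ectoderm formation in *Xenopus* animal cells. Its stage 10 intensities were 372 and 211 (**Nog**), 519 and 271 (**Nog+Dkk**), 297 and 174 (**Dkk**), 146 and 54.9 (**Dor**), and 210.3 and 78.5 (**Ven**). Clutch 1 was above clutch 2 in all 5 conditions, by 2.103-fold on average, and within each clutch the order was **Nog+Dkk**, **Nog**, **Dkk**, **Ven**, **Dor** from high to low.

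The rise was 2.92-fold in **Nog+Dkk** (1.55 ± 0.17 on the log2 scale, adjusted p = 1.16e-04) and 2.18-fold in **Nog** (1.12 ± 0.17, adjusted p = 0.0082). *foxi1.L* was the only member called in either comparison, where 0.271% and 0.129% of all probe sets were called. In **Dkk** its change was 0.82 (95% interval 0.47 to 1.18) and was not called (adjusted p = 0.225), and none of the 10 members was, with 1 of them at an unadjusted p below 0.05 and 0.0452% of all probe sets called. Rank products, a test on the ranks of the within-clutch differences, did call *foxi1.L* in **Dkk**, at a false discovery rate of 0.0188.

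No member was called in **Nog+Dkk** against either single plasmid at stage 10. *foxi1.L* differed by 0.42 in **Nog+Dkk** against **Nog** (95% interval 0.066 to 0.78) and by 0.72 in **Nog+Dkk** against **Dkk** (0.37 to 1.08), in comparisons with 0.00646% and 0.0129% of all probe sets called and 1 member each at an unadjusted p below 0.05. Rank products called the second of these (false discovery rate 0.011). The mean of the 3 plasmid conditions exceeded **Ven** by 1.16 ± 0.14 (adjusted p = 3.16e-04). *foxi1.L* was again the only member called there, beside 0.207% of all probe sets.

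These calls rest on the pairing of arrays by clutch. Without the block the same log2 changes had an adjusted p of 0.999 in **Nog** and 1.00 in **Nog+Dkk**. For 2 arrays of stage 10, the second of **Nog+Dkk** and the second of **Dkk**, the title and the characteristics name different clutches, and the title was used. The study lists **Nog+Dkk** and **Dkk** embryos of clutch 2 at stage 10, as the titles do, and made all 5 conditions of a batch from 1 clutch. A fit with the clutch of the characteristics therefore uses blocks that this design does not have. With the clutch of the characteristics, *foxi1.L* changed by 0.94 in **Nog+Dkk** (adjusted p = 0.844), and with both arrays left out its calls in **Nog** and **Nog+Dkk** were kept. Without clutch 2 the change was 1.305 in **Nog+Dkk** (adjusted p = 0.112) and 0.82 in **Nog** (adjusted p = 0.368), and without clutch 1 it was 1.43 in **Nog** (adjusted p = 0.179). The mean of the plasmid conditions was 0.87 without clutch 2 (adjusted p = 0.341).

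At stage 11.5 the order differed. *foxi1.L* read 64.6 and 113 (**Nog**, clutch 3, then clutch 4, as in all lists of stage 11.5 values), 143 and 151 (**Nog+Dkk**), 91.7 and 109 (**Dkk**), 86.5 and 114 (**Dor**), and 106 and 119 (**Ven**). **Nog+Dkk** was above the other 8 arrays, while the other 4 conditions overlapped. Against **Ven** the change was 0.39 in **Nog+Dkk** (adjusted p = 0.254) and -0.39 in **Nog** (adjusted p = 0.206), neither called.

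Directly compared, *foxi1.L* was 1.72-fold higher in **Nog+Dkk** than in **Nog** at stage 11.5 (0.78 ± 0.17 on the log2 scale, adjusted p = 0.0525), the only member called beside 0.658% of all probe sets. The call was lost without clutch 3, where the difference was 0.41. It was also lost without clutch 1 or clutch 2, which hold no stage 11.5 arrays and bear only on the estimated spread.

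The stage 11.5 change was smaller than the stage 10 change by 1.52 in **Nog** (-1.52 ± 0.24, adjusted p = 0.0195) and by 1.16 in **Nog+Dkk** (-1.16 ± 0.24, adjusted p = 0.0994). *foxi1.L* was the only member called in these 2 tests of the difference, which called 1.56% and 0.142% of all probe sets. In **Dkk** the difference was -0.99 (95% interval -1.49 to -0.48, adjusted p = 0.661). No member was called for **Dkk** or **Dor**, with 2 and 6 members at an unadjusted p below 0.05 and 0.0129% and 0.523% of all probe sets called. For **Nog+Dkk** the call was lost without clutch 1 (-1.40, adjusted p = 0.576) and without clutch 2 (-0.92, adjusted p = 0.738), and for **Nog** without clutch 1 (-1.82, adjusted p = 0.252) and without clutch 2 (-1.21, adjusted p = 0.228).

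**Figure D2:**
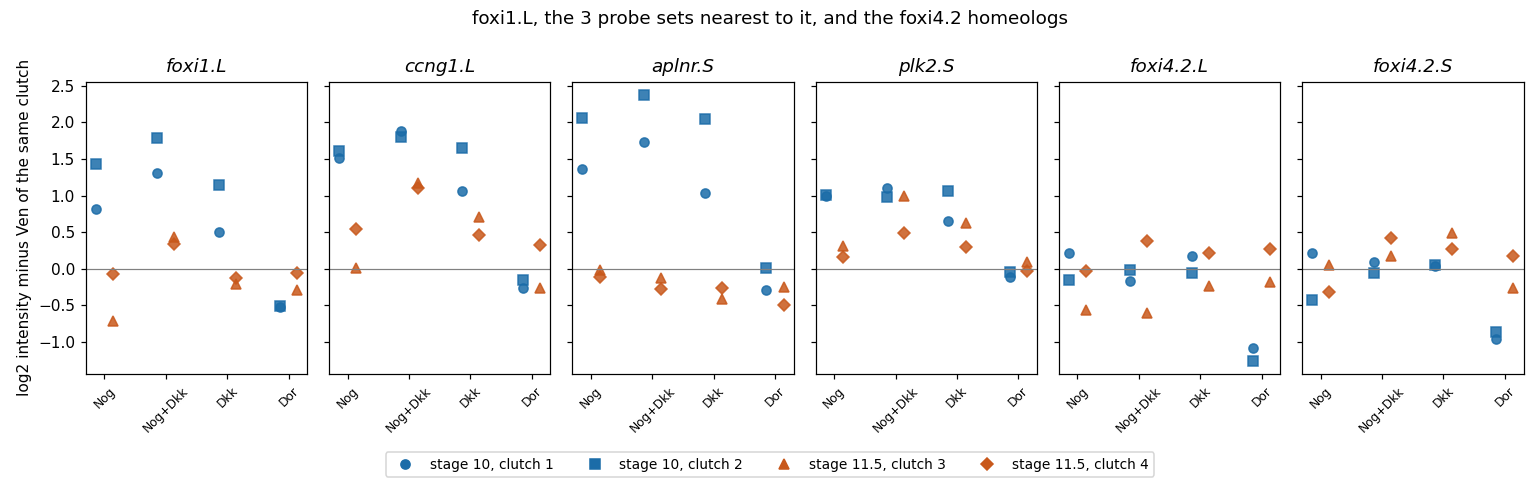
Log2 intensity minus the Ven array of the same clutch (vertical axis) in 4 conditions, for foxi1.L, the 3 probe sets most like it and the foxi4.2 homeologs, with 1 point per array and the clutch given by the marker. At stage 10 (blue) foxi1.L, ccng1.L, aplnr.S and plk2.S were above 0 in the 3 plasmid conditions, whereas foxi4.2.L and foxi4.2.S were at -0.86 to -1.26 in Dor.

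The 3 probe sets whose pattern was most like that of *foxi1.L* were *ccng1.L* (cyclin G1, Pearson r = 0.91), *aplnr.S* (the apelin receptor, r = 0.90) and *plk2.S* (a polo-like kinase, r = 0.86), by the correlation of log2 intensities after each clutch's mean was subtracted, over 20 arrays that share clutches and controls. *ccng1* and *plk2* are p53 targets in mammals. At stage 10 *ccng1.L* rose by 1.56 with noggin, 1.84 with both plasmids and 1.36 with dkk-1, and *aplnr.S* by 1.71, 2.05 and 1.54 in the same order. *plk2.S* was dim, at 8.54 to 34.5 intensity units over the arrays of both stages, and rose by 1.00, 1.04 and 0.85. All 9 of these changes were called, with adjusted p between 2.88e-06 and 0.00834. The comparisons called 0.129% (**Nog**), 0.271% (**Nog+Dkk**) and 0.0452% (**Dkk**) of all probe sets. The 3 probe sets were picked for their likeness to *foxi1.L* on these same arrays, so their calls are no independent result. Whether the rise of *foxi1.L* and theirs have a common source was not tested.

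At stage 11.5, *dlx5.L*, *tfap2a.L* and 1 of the 2 *gata2.L* probe sets were lower in **Nog**, at 0.65 to 0.772 times the **Ven** level. These were 3 of the 10 members, in a comparison that called 8.57% of all probe sets. The median of the members was -0.32, beside -0.026 over all probe sets, and 9 of the 10 were below 0.

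*dlx5.L* read 299 and 312 (**Nog**), 348 and 374 (**Nog+Dkk**), 431 and 421 (**Dkk**), 329.7 and 387 (**Dor**), and 503 and 439 (**Ven**). The 2 **Ven** arrays were the highest of the 10 and **Nog** the lowest, and no condition overlapped with **Ven**. The change was -0.62 ± 0.13 in **Nog** (adjusted p = 0.011), and without clutch 3 it was -0.49 (adjusted p = 0.131). In **Nog+Dkk** it was -0.38 (95% interval -0.66 to -0.11, adjusted p = 0.142), in **Dor** -0.40 (-0.67 to -0.12, adjusted p = 0.179) and in **Dkk** -0.14 (-0.42 to 0.13).

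The mean of the 3 plasmid conditions was below **Ven** by 0.38 for *dlx5.L* (-0.38 ± 0.11, adjusted p = 0.0535), the only member called in that comparison, beside 6.86% of all probe sets. Without clutch 3 the value was -0.26 (adjusted p = 0.337). Without clutch 4 the values were -0.50 for *dlx5.L*, -0.43 for *tfap2a.L*, and -0.71 and -0.67 for the A1 and S1 sets of *gata2.L*.

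*tfap2a.L* read 617 and 465 (**Nog**), 571 and 501 (**Nog+Dkk**), 752 and 516 (**Dkk**), 664 and 524 (**Dor**), and 865 and 556 (**Ven**) at stage 11.5. Within each clutch **Ven** was the highest, but each other condition overlapped with **Ven**, since clutch 3 was above clutch 4 throughout. The change was -0.37 ± 0.12 in **Nog** (adjusted p = 0.0847) and -0.37 ± 0.12 in **Nog+Dkk** (adjusted p = 0.118), so the threshold separated a pair of nearly equal values. In **Nog** it was -0.26 without clutch 3, where the call was lost. The call was also lost without clutch 1 or clutch 2, which hold no stage 11.5 arrays and bear only on the estimated spread.

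*gata2.L* encodes a zinc finger factor switched on by BMP in ventral ectoderm and mesoderm and used later in blood formation. Its A1 set read 362 and 637 (**Nog**), 401 and 647 (**Nog+Dkk**), 494 and 689 (**Dkk**), 419.7 and 582 (**Dor**), and 681 and 668 (**Ven**). The S1 set read 781 and 1208 (**Nog**), 644 and 1269 (**Nog+Dkk**), 903 and 1276 (**Dkk**), 787 and 1209 (**Dor**), and 1220.3 and 1205 (**Ven**). In both probe sets clutch 3 was lower in the other 4 conditions than in **Ven**, while clutch 4 was within 0.20 of **Ven** on the log2 scale.

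For the A1 set the change in **Nog** was -0.49 ± 0.17 (adjusted p = 0.0983). It was -0.91 in clutch 3 and -0.069 in clutch 4, which is the value without clutch 3 (adjusted p = 0.861), and the call was also lost without clutch 1 or clutch 2 (adjusted p = 0.172 each). The S1 set was not called in **Nog** (-0.32, 95% interval -0.75 to 0.11). The log2 intensities of the 2 probe sets, less each clutch's mean, had a Pearson r of 0.85 over the 20 arrays. Without clutch 4 the A1 set was also called in **Nog+Dkk** (-0.76, adjusted p = 0.0545) and **Dor** (-0.70, adjusted p = 0.0743), and the S1 set in **Nog+Dkk** (-0.92, adjusted p = 0.0727).

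*dlx2.S* was the one member that fell in **Nog+Dkk** and **Dor** at stage 11.5. The gene is known for roles in neural crest and forebrain. It read 76.1 and 35.9 (**Nog**), 50.2 and 26.0 (**Nog+Dkk**), 83.1 and 57.9 (**Dkk**), 40.8 and 28.7 (**Dor**), and 80.7 and 51.1 (**Ven**). The arrays of **Nog+Dkk** and **Dor** lay below both **Ven** arrays, **Nog** and **Dkk** overlapped with **Ven**, and clutch 3 was above clutch 4 throughout.

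The change was -0.83 ± 0.14 in **Nog+Dkk** (adjusted p = 0.00231) and -0.91 ± 0.14 in **Dor** (adjusted p = 5.74e-04). It was the single member called in each, where 4.6% and 2.84% of all probe sets were called. In **Dkk** its change was 0.11 (95% interval -0.18 to 0.40), and none of the 10 members was called in **Dkk** against **Ven** at stage 11.5, beside 0.445% of all probe sets, with 1 member at an unadjusted p below 0.05. In **Nog** it was -0.30 (-0.58 to -0.010, adjusted p = 0.239), and -0.51 without clutch 3, where it was called (adjusted p = 0.0798).

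*dlx2.S* was also lower with both plasmids than with *dkk-1* alone. In **Nog+Dkk** against **Dkk** the difference was -0.94 ± 0.14 (adjusted p = 0.00456), the only member called beside 0.336% of all probe sets, and without clutch 4 it was -0.73 (adjusted p = 0.100151). In **Nog+Dkk** against **Nog** it was -0.53 (95% interval -0.82 to -0.25, adjusted p = 0.137). Without the clutch block none of the *dlx2.S* calls was kept (adjusted p = 0.991 in **Nog+Dkk** and 1.00 in **Dor** against **Ven**).

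The probe set was dim, at the 25.9th percentile of mean intensity. At stage 10 it read 24.6 to 40.3 over all conditions, and no change against **Ven** was called. The test of the stage difference gave -0.80 in **Nog+Dkk** (adjusted p = 0.169) and -0.69 in **Dor** (adjusted p = 0.25), neither called. The homeolog *dlx2.L* varied least of the members, from 41.0 to 56.9 over the 20 arrays, and was called in none of the 20 comparisons. Its clutch-centred values had a Pearson r of 0.70 with those of *dlx2.S*.

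**Figure D3:**
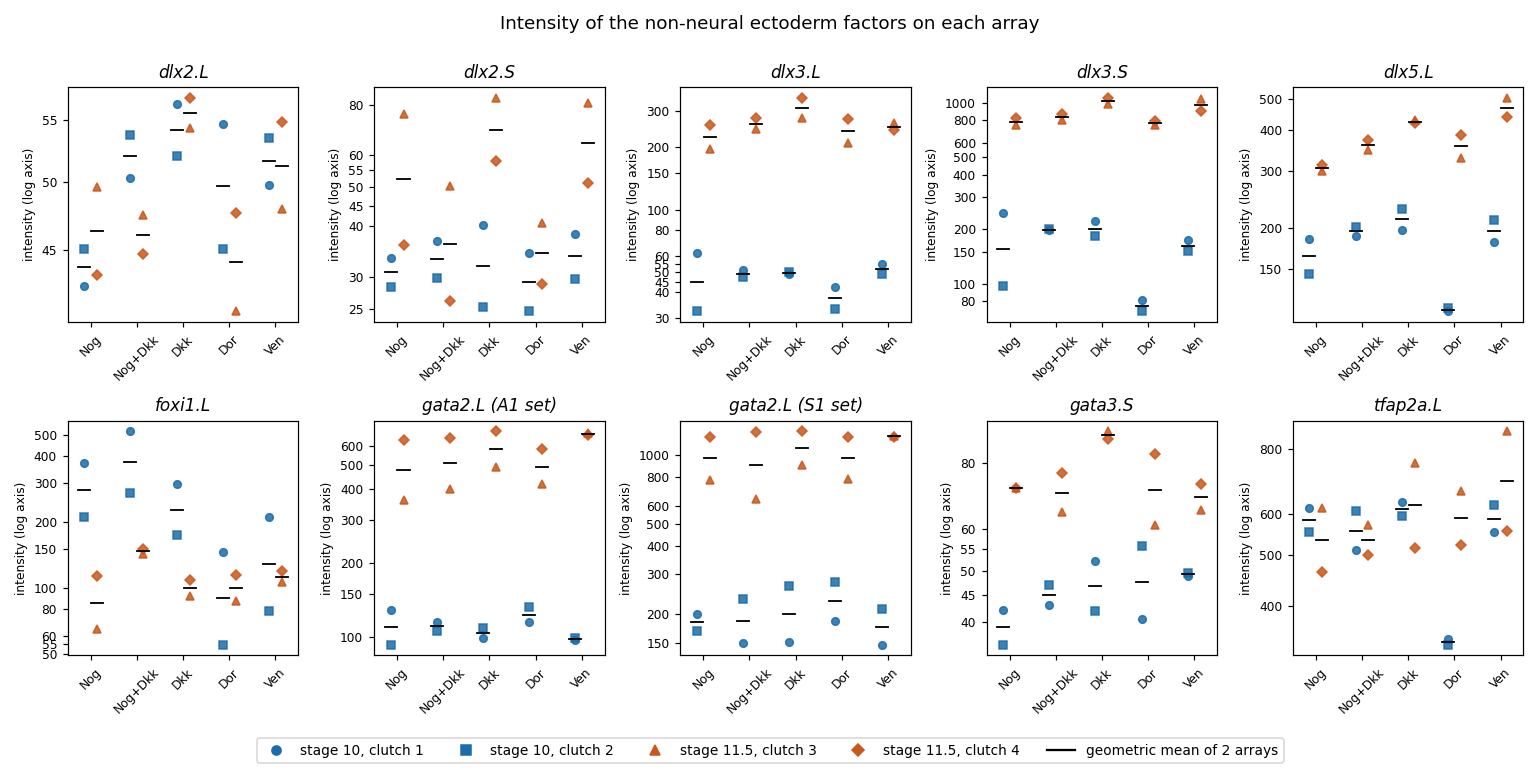
Intensity of the 10 member probe sets on each of the 20 arrays (log axis, 1 panel per probe set with its own scale), by condition, with stage 10 in blue, stage 11.5 in orange, the clutch given by the marker and a bar at the geometric mean of 2 arrays. The 2 Dor arrays of stage 10 were the lowest for tfap2a.L, dlx3.S and dlx5.L, foxi1.L was highest in Nog+Dkk at stage 10, and dlx3 and gata2.L were several times higher at stage 11.5.

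*gata3.S*, the relative of *gata2* expressed in epidermis, was called in none of the 20 comparisons. It read 36.2 to 55.7 at stage 10 and 60.9 to 91.6 at stage 11.5, at the 34.7th percentile of mean intensity. Its highest values were those of **Dkk** at stage 11.5, 91.6 and 88.4 against 65.0 and 72.9 (**Ven**), a change of 0.39 (95% interval 0.070 to 0.70, adjusted p = 0.473). *dlx3.L* was not called against **Ven** either, and at stage 11.5 read 197 and 255 (**Nog**), 245 and 275 (**Nog+Dkk**), 277 and 345 (**Dkk**), 209 and 275 (**Dor**), and 259.9 and 243 (**Ven**).

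*dlx3.S* was not called at stage 11.5. It read 755 and 820.1 (**Nog**), 804 and 869.6 (**Nog+Dkk**), 991 and 1065 (**Dkk**), 750.3 and 799 (**Dor**), and 1054 and 906 (**Ven**). The change in **Dor** was -0.34 (95% interval -0.765 to 0.093) at this stage. Its test against the stage 10 change gave a difference of 0.77 (0.16 to 1.37, adjusted p = 0.68), so a smaller fall at the later stage was not shown. The same test gave 0.41 (adjusted p = 0.877) for *dlx5.L* and 0.55 (adjusted p = 0.378) for *tfap2a.L*.

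*gata2.L* at stage 10 was the member group with values above 0 in **Dor**, at 0.33 (95% interval -0.013 to 0.68) for the A1 set and 0.37 (-0.059 to 0.80) for the S1 set, neither called. The A1 set read 115 and 133 (**Dor**) against 97.0 and 98.5 (**Ven**), and the S1 set 188 and 276 (**Dor**) against 147 and 211 (**Ven**). Over all conditions at that stage they read 92.9 to 133 and 147 to 276.

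The levels at stage 11.5 and stage 10 are given as a description, since the clutches and the way of cutting differ. In **Ven** the geometric means were 1213 and 176 for *gata2.L* (S1 set), 674 and 97.7 for *gata2.L* (A1 set), 977 and 163 for *dlx3.S* and 251 and 51.7 for *dlx3.L*, stage 11.5 first. These are ratios of 4.85-fold to 6.90-fold, and for these 4 probe sets the arrays of the 2 stages did not overlap in any condition. *dlx5.L* was 2.40-fold, *dlx2.S* 1.90-fold and *gata3.S* 1.40-fold higher at stage 11.5 in **Ven**. *tfap2a.L* and *dlx2.L* overlapped between stages in **Ven**, at ratios of 1.18 and 0.993.

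The ratio differed most between conditions for *dlx3.S* and *foxi1.L*. For *dlx3.S* it was 10.2-fold in **Dor** and 4.195-fold to 6.01-fold in the other 4 conditions. *foxi1.L* was the only member whose level was lower at stage 11.5 without overlap in several conditions, at ratios of 0.31 (**Nog**), 0.39 (**Nog+Dkk**) and 0.44 (**Dkk**). In **Dor** (1.11) and **Ven** (0.87) its stages overlapped.

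Of the related genes *dlx1*, *dlx4*, *dlx6*, *gata1*, *gata4* to *gata6*, other *foxi* genes and *tfap2b* to *tfap2e*, 13 probe sets of 12 genes were measured under a single symbol. At stage 10 in **Dor** 2 of them fell and 1 rose, where 0.684% of all probe sets were called. The 2 that fell were the homeologs *foxi4.2.L* (its S1 set), by 1.17 on the log2 scale (adjusted p = 4.55e-04), and *foxi4.2.S*, by 0.91 (adjusted p = 0.012). *foxi4.2*, also called foxi1a, is another forkhead gene of the early ectoderm.

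*foxi4.2.L* read 1301 and 843 (**Nog**), 996 and 921 (**Nog+Dkk**), 1264 and 900.1 (**Dkk**), 529 and 391 (**Dor**), and 1117 and 934 (**Ven**) at stage 10. Each of its 3 plasmid conditions overlapped with **Ven**, with 95% intervals of -0.30 to 0.37 (**Nog**), -0.43 to 0.25 (**Nog+Dkk**) and -0.28 to 0.40 (**Dkk**). At stage 11.5 its change in **Dor** was 0.045, and the stage difference of 1.21 ± 0.23 was called (adjusted p = 0.02). A second, dim *foxi4.2.L* probe set (its A1 set, 27.0 to 54.1) did not share this pattern and rose in **Nog** at stage 11.5 by 0.50 (adjusted p = 0.0549).

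The Gata paralogs are known as endodermal or blood genes. *gata4.L*, an endoderm and heart factor, rose in **Dor** early by 0.63 (adjusted p = 0.0225) and late by 0.94 (adjusted p = 2.12e-04). In **Nog** at stage 11.5, 3 of the 13 paralog probe sets rose, where 8.57% of all probe sets were called. Besides the *foxi4.2.L* A1 set they were *gata4.S*, by 0.67 (adjusted p = 0.0519), and *gata6.S*, by 0.42 (adjusted p = 0.0893). *gata6.S* differed from **Ven** by 0.21 in clutch 3 and by 0.63 in clutch 4. *gata1.L* and *gata1.S*, blood factors, read 34.4 to 90.4 and were not called against **Ven**. *gata5.L*, *gata5.S*, *gata6.L*, *dlx6.S* and the very dim *tfap2b.L* (16.2 to 31.4) were not called against **Ven** either.

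**Figure D4:**
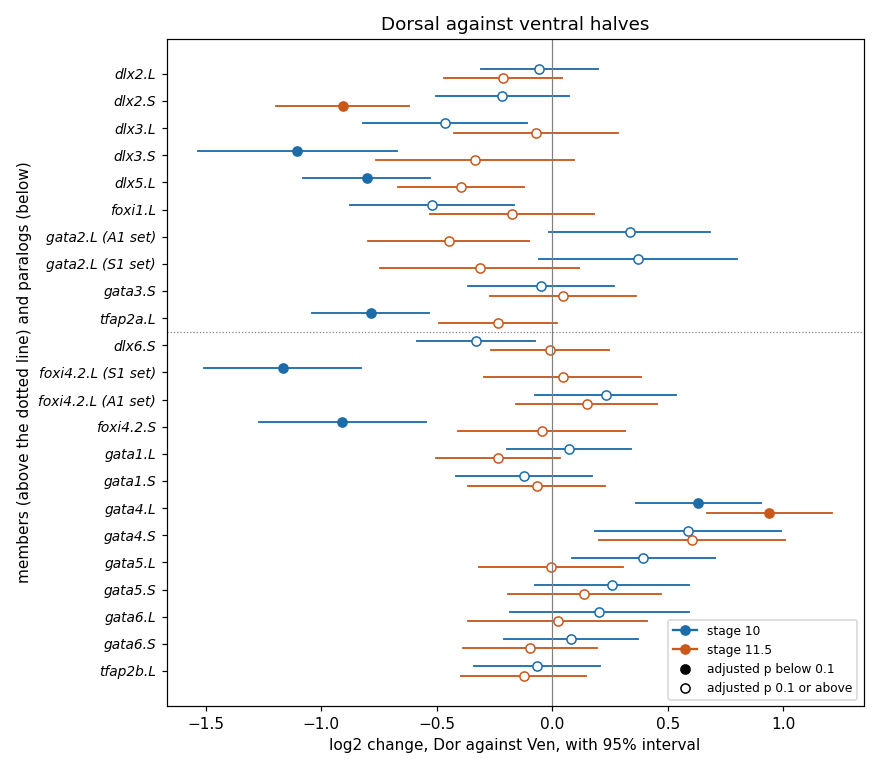
Log2 change in Dor against Ven (horizontal axis, 95% interval as a line) of the 10 member probe sets, above the dotted line, and the 13 paralog probe sets, below it, with stage 10 in blue, stage 11.5 in orange and filled points where the adjusted p was below 0.1. At stage 10 dlx3.S, dlx5.L, tfap2a.L, foxi4.2.L and foxi4.2.S fell and gata4.L rose, and at stage 11.5 dlx2.S fell and gata4.L rose.

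Genes that read BMP signalling or mark the ventral side made a list of 32 probe sets. In **Dor** 7 fell and none rose at stage 10 (median -0.44), and 15 fell and 2 rose at stage 11.5 (median -0.48). At that stage 12 fell and 1 rose in **Nog+Dkk** (median -0.28), 4 fell in **Nog** (median -0.18) and 1 fell in **Dkk** (median -0.021). The shares of all probe sets called, in either direction, were 4.6% in **Nog+Dkk**, 8.57% in **Nog** and 0.445% in **Dkk** at stage 11.5, and for **Dor** 0.684% at stage 10 and 2.84% at stage 11.5, which also apply to the lists that follow. None was called in a plasmid condition at stage 10. The shares of all probe sets called there, also for the lists that follow, were 0.129% (**Nog**), 0.271% (**Nog+Dkk**) and 0.0452% (**Dkk**). *ventx1.1.L*, a ventral homeobox gene, fell in **Dor** early by 1.39 (adjusted p = 1.22e-04) and late by 1.21 (adjusted p = 2.98e-04), and *szl.L* (sizzled, a BMP feedback inhibitor) early by 1.55 (adjusted p = 0.00747) and late by 1.75 (adjusted p = 0.00101).

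Epidermal genes (17 probe sets, mostly keratins) had values of the members' sign in **Dor** at stage 10 but no call (median -0.30). Their summed intensity was 2439 to 3618 in **Dor**, against 3165 to 4641 in **Ven**. At stage 11.5 the dim *tp63.L* (10.2 to 16.8 over both stages) fell by 0.55 in **Nog+Dkk** (adjusted p = 0.0196), and no other epidermal probe set was called against **Ven** at either stage.

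The neural plate list (17 probe sets) moved the other way, with 1 (**Nog**), 3 (**Nog+Dkk**) and 5 (**Dor**) rising at stage 10. At stage 11.5 the numbers that rose were 2 (**Nog**), 9 (**Nog+Dkk**), 3 (**Dkk**) and 11 (**Dor**), and none fell in any comparison with **Ven**. *foxd4l1.1.S*, an early neural factor, rose at stage 10 by 1.102 in **Nog** (adjusted p = 0.0222), 1.31 in **Nog+Dkk** (adjusted p = 0.00174) and 1.62 in **Dor** (adjusted p = 4.47e-05).

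Of the neural border and crest list (21 probe sets), 1 rose in **Nog+Dkk** and 4 in **Dor** at stage 10, with *foxd3.S*, a crest factor that the organizer also expresses, up by 1.78 (adjusted p = 2.91e-04 in **Dor**). At stage 11.5 the numbers that rose were 1 (**Nog**), 5 (**Nog+Dkk**) and 4 (**Dor**), and 1 fell in each of these conditions. The one that fell was *sox9.S*, by 0.60 in **Nog** (adjusted p = 0.00415), 0.66 in **Nog+Dkk** (adjusted p = 0.00152) and 0.76 in **Dor** (adjusted p = 1.71e-04). Blood and ventral mesoderm markers (9 probe sets) were dim, with a summed intensity of 287 to 368 over all arrays, and none was called against **Ven**. In the endoderm list (14 probe sets) 1 rose in **Dor** at stage 10. At stage 11.5, 3 rose in **Nog** and 1 in **Nog+Dkk**, while in **Dor** 1 rose and 1 fell.

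Organizer and neural levels were higher in **Dor** at stage 10, where *tfap2a.L*, *dlx3.S* and *dlx5.L* were lower. The summed intensity of the organizer list was 7188 to 7553 in **Dor**, against 3142 to 3386 in **Ven**, and that of the neural plate list 13878 to 15238 in **Dor**, against 11736 to 12148 in **Ven**. Their part in the members' values was not tested.

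By the same correlation over 20 arrays, *tfap2a.L* was nearest to *foxi4.2.L* (r = 0.95), *bambi.L* (a BMP pseudoreceptor, 0.91) and *ventx2.1.S* (0.90). *dlx5.L* was nearest to *bambi.L* (0.90), *dlx3.S* (0.90) and *tfap2a.L* (0.89), and *dlx3.S* to *krt7.L* (a keratin, 0.93), *bambi.L* (0.92) and *has-rs.S* (0.92). *dlx3.L* was nearest to the keratins *krt70.S* (0.85) and *krt12.5.S* (0.81) and to *slc25a11.S* (0.81).

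*dlx2.S* was nearest to *pmepa1.L* (0.88), *sox9.S* (0.87) and *selenom.L* (0.82). *dlx2.L* was nearest to *proc.S* (0.95), *gata3.S* to *rbpms2.S* (0.80) and the A1 set of *gata2.L* to *ppp5c.S* (0.86), all genes whose own changes against **Ven** were not called. Among the members, *foxi1.L* had an r of 0.53 with *tfap2a.L* and 0.62 with *dlx3.S*, and *tfap2a.L* one of 0.87 with *dlx3.S*. *bambi.L*, near to 3 of the members, read 146 and 162 (**Dor**) and 298 and 455 (**Ven**) at stage 10, a fall of 1.25 (adjusted p = 0.00829). The correlation used these same arrays, so this fall is no independent result.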

How the data were processed

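Total RNA from dorsal or ventral pieces of *X. laevis* gastrulae was hybridised to Affymetrix arrays, 1 array per sample. The authors made the deposited intensity values with RMA, which corrects background, normalizes by quantiles and summarises probes (no version is given in the sources used here). Although described as log2, the deposited values are linear (4.67 to 9960 here) and were log2 transformed. Of 15611 probe sets, 120 array controls were left out. Symbols came from the platform annotation: 9304 tested probe sets had 1 symbol, 195 several and 5992 none, and 2 symbols were updated. Homeologs can share signal.

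Limma 3.58.1 (R 4.3.3) was fitted to 10 groups with the clutch within each stage as a block (residual degrees of freedom 8, prior 9.82). Benjamini-Hochberg adjustment ran over all 15491 probe sets of a comparison. Samples of a clutch come from the same eggs. Same-clutch deviations from condition means had correlations of 0.681 to 0.841 at stage 10 and 0.485 to 0.801 at stage 11.5 over 10 pairs of conditions each, with the clutch of the titles. Rank products, other scalings, thresholds and blocks, and fits without 1 clutch were alternatives. The limma fit and rank products were tested on simulated data, for **Nog+Dkk** against **Ven** at each stage. The other comparisons and steps were not. Figures used matplotlib 3.10.9.

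The members and lists were chosen with earlier results of these data known. Named were all members, their measured paralogs, the 3 probe sets of highest correlation with each member, and up to 4 probe sets per list with the largest called change against **Ven**. No sequence, raw scanner file or empty-plasmid control was used here.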

Additional observations from a re-analysis of the deposited data

Results flagged for a closer look

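*foxi1.L* and the S1 set of *foxi4.2.L* had effects for which the test of the difference between the stages was called. For *foxi1.L* in **Nog** the stage 11.5 change minus the stage 10 change was -1.52 on the log2 scale (limma, adjusted p = 0.0195), with -0.39 at stage 11.5 and 1.12 at stage 10. For *foxi1.L* in **Nog+Dkk** it was -1.16 (adjusted p = 0.0994), with 0.39 and 1.55 in the same order. Of 13 alternative settings, 9 kept the call in **Nog** and 3 kept that in **Nog+Dkk**.

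For the S1 set of *foxi4.2.L* in **Dor** it was 1.21 (adjusted p = 0.02), with 0.045 at stage 11.5 and -1.17 at stage 10. For the dim A1 set of the same gene it was -0.083 and was not called. The alternative settings were read for the members only. All these differences compare different clutches and pieces cut by different landmarks. Stage, clutch and way of cutting cannot be told apart in them.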

How the results depend on the processing

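The counts below are of the 10 member probe sets called. Reversals of sign are given only for changes that were called in some fit, and smaller changes of a count are not all given. *gata2.L* (S1 set) changed sign without clutch 3, to 0.075 in **Nog+Dkk** and 0.054 in the plasmid mean against **Ven** at stage 11.5, neither called. Without clutch 4 the same values were -0.92 and -0.67.

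Without the replicate block, 0 members were called in **Nog** or **Nog+Dkk** against **Ven** at stage 10, in **Nog**, **Nog+Dkk** or **Dor** at stage 11.5, in the plasmid mean at either stage, in **Nog+Dkk** against **Nog** or **Dkk** at stage 11.5, and for the stage differences, and 1 was in **Dor** at stage 10 and in **Nog+Dkk** against **Dor** at stage 10. With the clutch of the characteristics the count was 0 in **Nog**, **Nog+Dkk** and the plasmid mean at stage 10, in **Nog+Dkk** against **Dor** at stage 10, in **Nog+Dkk** against **Nog** and against **Dkk** at stage 11.5, in the plasmid mean at stage 11.5 and for both called stage differences, and 1 in **Nog** at stage 11.5.

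With each stage fitted alone it was 1 in **Dkk** at stage 10, 1 in **Nog** at stage 11.5 and 0 in **Nog+Dkk** against **Nog** at stage 11.5. At an adjusted p below 0.05 it was 1 in **Nog** at stage 11.5 and 0 in **Nog+Dkk** against **Nog**, the plasmid mean at stage 11.5 and the **Nog+Dkk** stage difference. Without the 2 arrays of conflicting labels it was 1 in **Nog** at stage 11.5, 1 in **Nog+Dkk** against **Dor** at stage 10 and 0 for the **Nog+Dkk** stage difference. Rank products called 1 in **Dkk** and 1 in **Nog+Dkk** against **Dkk** at stage 10, and 0 in **Nog** at stage 11.5.

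In **Nog+Dkk** at stage 11.5 the count was 2 with a trended and robust prior and 3 after cyclic loess. In the plasmid mean at stage 11.5 it was 2 with that prior, 4 after cyclic loess, 2 with equal array medians, 2 with an offset of 16 and 3 without the dimmest probe sets. The **Nog+Dkk** stage difference had 0 after cyclic loess, equal medians, the offset and that filter.

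Leaving out 1 clutch at a time gave 0 to 1 members in **Nog**, **Nog+Dkk**, **Dkk** and the plasmid mean at stage 10, and 1 to 3 in **Dor**. At stage 11.5 it gave 1 to 4 in **Nog**, **Nog+Dkk** and the plasmid mean and 1 to 2 in **Dor**. **Nog+Dkk** gave 2 to 4 against **Dor** at stage 10 and 0 to 1 against **Nog** and against **Dkk** at stage 11.5. The stage differences gave 0 to 2 in **Nog**, 0 to 2 in **Nog+Dkk** and 0 to 1 in **Dor**. The share of all probe sets called under each of these settings is not given here. The counts therefore do not show whether a change was particular to the members. The cause of these changes was not tested. With 2 arrays a group and dim probe sets such as *dlx2.S*, small differences were not detectable, and a lone array left by a dropped clutch was assumed to vary like the other groups.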
